A study of Mus musculus with 26 samples.

Results

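The comparison described here is that of YAC128 with wild type (WT) mice at 12 months of age, in the striatum. YAC128 mice carry the whole human HTT gene, with a CAG repeat in the disease range, on a yeast artificial chromosome. They model Huntington's disease, in which the medium spiny neurons of the striatum degenerate. All arrays that the labels place at this age were taken, which gave 10 of the 26 arrays of the series, 5 from YAC128 and 5 from WT mice. The YAC128 animals were hemizygous for the transgene on a C57BL6/J background and were bred in house, and the WT animals lacked the transgene. The YAC128 group held 3 females and 2 males, and the WT group held 2 females and 3 males. Total RNA of microdissected striatum was hybridised to 1 Affymetrix Mouse Gene 1.0 ST array per mouse. Ages are given in months as in the study, since the labels attach the same numbers to weeks.

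Most neurons of the striatum are medium spiny neurons, which use GABA and receive dopamine from the midbrain and glutamate from the cortex. Those of the direct pathway carry the dopamine D1 receptor with substance P and dynorphin. Those of the indirect pathway carry the dopamine D2 receptor with enkephalin. In Huntington's disease and its mouse models, RNAs that mark these neurons are known to decline early, and the indirect pathway is known to be affected before the direct one.

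Values are deposited log2 signals, and a difference is the mean of YAC128 minus that of WT on the log2 scale, given with its standard error from limma. Lists of values by mouse are in the order WT females 1 and 2, WT males 1 to 3, YAC128 females 1 to 3 and YAC128 males 1 and 2. A level belongs to 1 probeset and is not compared with that of another gene. Each of 19937 genes was represented by its probeset of the highest mean, and adjusted p-values are Benjamini-Hochberg values over all 34760 probesets. In bulk tissue, fewer cells of a type cannot be told apart from less RNA in each of those cells.

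The signals fitted the labels on tissue and sex. YAC128 female 1 lay furthest out of the 10 arrays on the second principal component and had the lowest array weight, 0.597, so results that rest on it are given without it too. Medium spiny neuron markers were bright on every array, for example Penk at 13.33, 13.17, 13.33, 13.29 and 13.20 in WT mice. Xist, which is transcribed from the inactive X chromosome, was between 12.16 and 12.41 in the 5 females and between 5.82 and 6.44 in the 5 males. The Y-linked gene Eif2s3y was between 4.51 and 4.68 in females and between 8.74 and 9.08 in males. The mouse Htt probeset read 9.78, 9.80, 9.90, 9.91 and 9.88 in WT and 10.0002, 9.85, 9.87, 9.86 and 9.95 in YAC128 mice. The groups overlapped, with a difference of 0.051 ± 0.050 and an exact two-sided permutation p of 0.246 over 252 assignments of the arrays, of which the smallest possible p was 0.00794. Whether this probeset also detects the human transgene is not given in the sources used here. Bdnf, the neurotrophin that the cortex supplies to the striatum, differed by 0.068 ± 0.059, with an exact permutation p of 0.254.

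At an adjusted p under 0.05, 4 genes (0.0201% of those tested) and 1 probeset without a gene symbol passed the test, 0.0144% of all probesets, and all 5 were lower in YAC128 mice. At an unadjusted p under 0.05, 929 genes (4.66%) passed, close to the 5% that this threshold alone would give. Of these, 642 genes (3.22% of those tested) were lower and 287 (1.44%) were higher. Without YAC128 female 1 the counts were 796 lower and 266 higher. The split moved with the scaling of the arrays. Quantile normalization of the 10 deposited arrays gave 542 lower and 605 higher genes, and centring each array on its median gave 420 lower and 404 higher. In 281 genes (1.41%) the groups did not overlap, with all 5 YAC128 values below all 5 WT values in 200 (1.00%) and above them in 81 (0.406%). The median difference over all genes was -0.013, with 11624 of 19937 genes negative and 8313 positive. That median was 0.0040 with quantile normalization and 0.0043 with median centring. Counts of calls for gene groups below are at the unadjusted threshold. Both they and the counts of signs are to be read against these values over all genes. The lists were drawn up with earlier results of these data known, and several include genes that the study lists from these samples. Their counts are therefore descriptions. No gene outside the 4 passed the adjusted test, so all others are given as values with their unadjusted limma p.

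Car2, which encodes the cytosolic carbonic anhydrase of oligodendrocytes, had the smallest p of all probesets. It read 10.92, 10.77, 10.91, 10.89 and 10.78 in WT and 10.39, 10.40, 10.38, 10.43 and 10.43 in YAC128 mice. Each YAC128 value lay below each WT value, and the YAC128 mice spanned only 10.38 to 10.43. The difference was -0.45 ± 0.046, or 1.36-fold lower, with an adjusted p of 0.0258 by limma. Aspa, which encodes the aspartoacylase that splits N-acetylaspartate in oligodendrocytes, read 9.10, 9.11, 8.94, 9.07 and 9.10 in WT and 8.73, 8.60, 8.64, 8.52 and 8.62 in YAC128 mice. It fell by 0.44 ± 0.054 on the log2 scale, with an adjusted p of 0.0435, and the groups were again separate. In females alone Car2 differed by -0.45 and Aspa by -0.45, and in males alone by -0.43 and -0.46.

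Phex, an X-linked gene for a membrane endopeptidase best known for phosphate handling in bone, had the largest decrease of the 4. Its values were 7.10, 7.18, 7.29, 7.50 and 7.23 in WT and 6.64, 6.73, 6.68, 6.49 and 6.52 in YAC128 mice. The difference was -0.65 ± 0.079, or 1.57-fold lower, with an adjusted p of 0.0435. WT males 1 to 3 were the highest animals, and the difference was -0.84 in males and -0.45 in females, with an unadjusted p of 0.0113 for the difference between the sexes and no adjusted call. Gm19410, a predicted gene of unknown function, read 8.40, 8.26, 8.59, 8.47 and 8.59 in WT and 7.91, 7.77, 7.83, 7.82 and 7.87 in YAC128 mice. It fell by 0.62 ± 0.067 on the log2 scale, with an adjusted p of 0.0258. The probeset without a symbol differed by -0.51, from between 7.65 and 7.87 in WT to between 7.21 and 7.46 in YAC128 mice.

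The adjusted calls depended on single arrays. Without YAC128 female 1 there were 9 such probesets, without WT female 1 or WT female 2 there were 4, and without any of the other 7 arrays 0. With an array left out, Car2 and Gm19410 kept an adjusted p under 0.05 in 3 of 10 cases each, and Phex and Aspa in 1 of 10 each, with adjusted p between 0.0114 and 0.181 over the 4 genes. The differences themselves stayed within -0.47 to -0.43 for Car2, -0.47 to -0.42 for Aspa, -0.69 to -0.59 for Phex and -0.67 to -0.59 for Gm19410 over all alternatives.

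**Figure D1:**
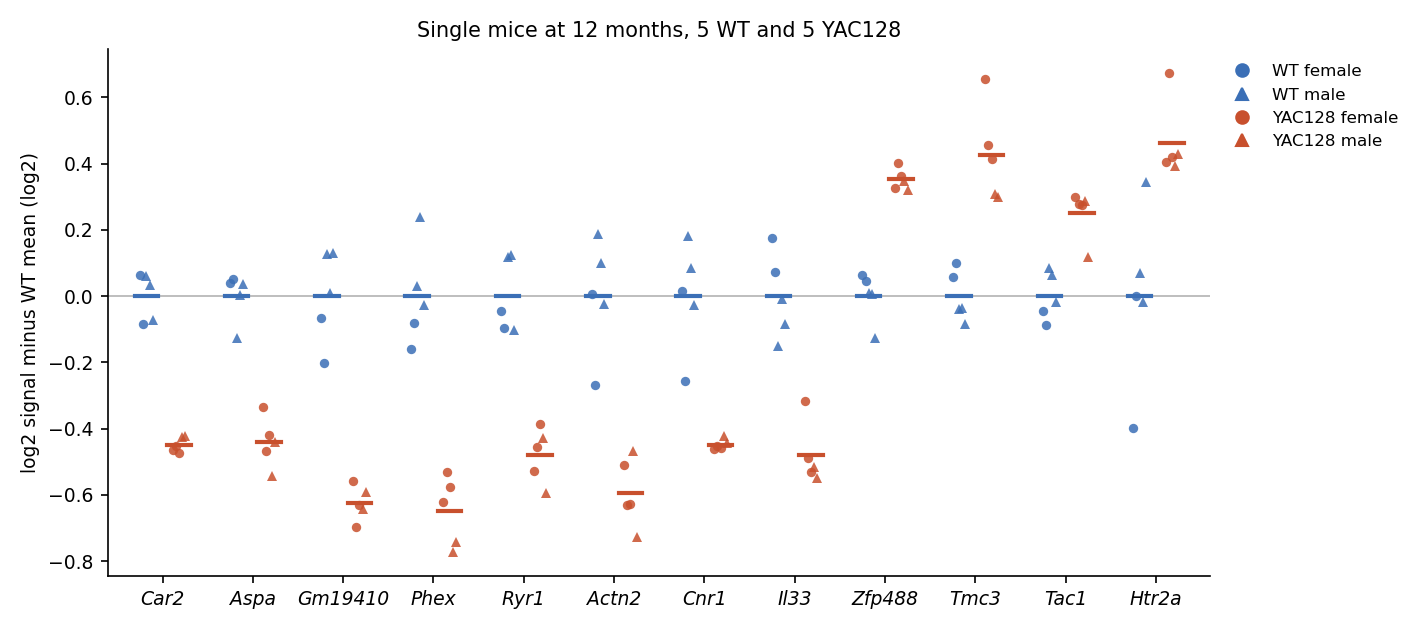
Log2 signal of 12 genes in each of the 10 mice, as the difference from the gene's WT mean (y axis, log2 units). Circles are females, triangles are males, and bars are group means. Car2, Aspa, Gm19410 and Phex have separate groups in which all YAC128 mice lie below all WT mice, while for Zfp488, Tmc3, Tac1 and Htr2a all YAC128 mice lie above.

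Other genes of mature oligodendrocytes differed in both directions. These cells wrap axons in myelin, a membrane rich in galactolipids and a small set of proteins. Of 29 measured members of the oligodendrocyte and myelin list, 8 had lower values at an unadjusted p under 0.05, 7 of them without overlap between the groups, and 2 had higher values, against 3.22% and 1.44% over all genes. The median difference of the list was -0.0090, beside -0.013 for all genes. The list includes genes that the study lists from these samples, such as Tspan2 and Enpp6, so these counts are a description. The lower members were enzymes and membrane proteins. Tspan2, a tetraspanin of the myelin sheath, read 10.12, 10.15, 10.03, 10.06 and 9.91 in WT and 9.74, 9.72, 9.71, 9.67 and 9.63 in YAC128 mice, a difference of -0.36 ± 0.053 with an unadjusted p of 2.69e-05. Ugt8a, the galactosyltransferase that makes galactocerebroside, read 9.80, 9.58, 9.68, 9.74 and 9.64 in WT and 9.47, 9.44, 9.29, 9.26 and 9.36 in YAC128 mice, a difference of -0.32 ± 0.060. Qdpr, which recycles tetrahydrobiopterin, differed by -0.30 ± 0.060, Fa2h, the hydroxylase of myelin fatty acids, by -0.20 ± 0.056, and Cldn11, the claudin of myelin tight junctions, by -0.19 ± 0.051. Groups of all 5 of these genes were separate.

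Enpp6, a choline phosphodiesterase of newly formed oligodendrocytes, went the other way. It read 7.92, 7.63, 7.998, 8.05 and 7.80 in WT and 8.46, 8.19, 8.19, 8.22 and 8.24 in YAC128 mice, a difference of 0.38 ± 0.086, and all YAC128 values lay above all WT values. YAC128 female 1 was the highest animal at 8.46, and the other YAC128 mice lay between 8.19 and 8.24. Anln was the other higher member, with a difference of 0.17. Genes of the main myelin proteins had small differences, -0.034 for Mbp, 0.11 for Mog and 0.069 for Mag, none of which passed the threshold. Zfp488, a zinc finger factor known to promote oligodendrocyte maturation and no member of the list, had the smallest p of all higher genes. It read 8.28, 8.26, 8.22, 8.22 and 8.09 in WT and 8.54, 8.62, 8.58, 8.56 and 8.54 in YAC128 mice, a difference of 0.35 ± 0.048 with an unadjusted p of 1.27e-05 and an adjusted p of 0.0609. Of 11 markers of oligodendrocyte precursors none passed the unadjusted threshold, and their median difference was -0.012.

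Medium spiny neuron markers differed in 1 direction. All 30 measured members had a negative difference, from -0.59 to -0.016, with a median of -0.10 beside -0.013 for all genes. At an unadjusted p under 0.05, 13 members were lower and none higher, and in 5 the groups were separate. The members were drawn up with earlier results of these data known, and include genes that the study lists from these samples, so this count is a description. Mean levels over the list were 10.97, 10.83, 11.11, 11.08 and 10.94 in WT mice and 10.86, 10.80, 10.82, 10.90 and 10.79 in YAC128 mice. WT female 2 lay inside the YAC128 range, and the YAC128 mice were closer to each other than the WT mice were. With an array left out, the count of lower members ranged from 8 to 17. It was 17 without WT female 2, and 8 without YAC128 female 2, YAC128 male 2, WT male 1 or WT male 2, while the median stayed between -0.15 and -0.084. A fit of all 26 arrays, in which the 3 ages share 1 estimate of the spread, gave 4 lower members with the same median, and median centring of the arrays gave 8. Markers of thalamus, septum and hypothalamus were lower too in 4 of 16 cases, with list means between 7.79 and 8.12 in WT and between 7.62 and 7.86 in YAC128 mice, and their part in this result was not tested.

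Actn2, Cnr1, Ddit4l and Scn4b were among the lower members of this list. Actn2, the actinin that anchors receptors in spines, read 10.52, 10.25, 10.70, 10.62 and 10.49 in WT and 10.005, 9.88, 9.89, 10.05 and 9.79 in YAC128 mice, with a difference of -0.59 ± 0.085, or 1.51-fold, and an adjusted p of 0.0609. Scn4b, the sodium channel subunit behind resurgent current in these neurons, read 11.44, 11.26, 11.56, 11.54 and 11.37 in WT and 11.09, 10.98, 10.997, 11.11 and 11.01 in YAC128 mice, with a difference of -0.40 ± 0.064. Cnr1, the cannabinoid CB1 receptor, read 9.73, 9.46, 9.89, 9.80 and 9.69 in WT and 9.25, 9.26, 9.25, 9.29 and 9.27 in YAC128 mice, with a difference of -0.45 ± 0.072, and the YAC128 mice spanned only 9.25 to 9.29. In all 3 genes WT female 2 was the lowest WT animal, yet still above each YAC128 mouse. Ddit4l, a stress-induced inhibitor of mTOR signalling, differed by -0.44 ± 0.087 with an overlap of the groups by 1 animal, YAC128 male 1 at 8.50 above WT female 2 at 8.46.

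Signalling enzymes of the dopamine and cAMP cascade had smaller differences. Adcy5, the main striatal adenylyl cyclase, read 11.70, 11.58, 11.76, 11.75 and 11.65 in WT and 11.52, 11.41, 11.50, 11.49 and 11.39 in YAC128 mice, a difference of -0.23 ± 0.052 with separate groups. The phosphodiesterase Pde10a differed by -0.18 ± 0.061 and Pde1b by -0.13 ± 0.052. Rgs9, which shortens dopamine receptor signalling, differed by -0.15 ± 0.063, and its relative Rgs4 by -0.18 ± 0.068. Of the other medium spiny neuron markers, Rasd2, the small GTPase Rhes that binds huntingtin, differed by -0.15 ± 0.066. Ano3, an anoctamin, differed by -0.23 ± 0.059 on 1 probeset, but its other probeset differed by -0.032. The phosphatase regulator Ppp1r1b, or DARPP-32, had a difference of -0.11 ± 0.064 and missed the threshold. Of 22 measured genes in the dopamine, adenosine and cAMP list, 6 were lower at the unadjusted threshold and none was higher, with a median of -0.038. With an array left out, the lower count of this list ranged from 2, without WT female 1 or YAC128 female 2, to 7, and was 3 without YAC128 male 2, WT male 1 or WT male 2. With arrays centred on the median it was 2, and in the fit over all 26 arrays 0.

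**Figure D2:**
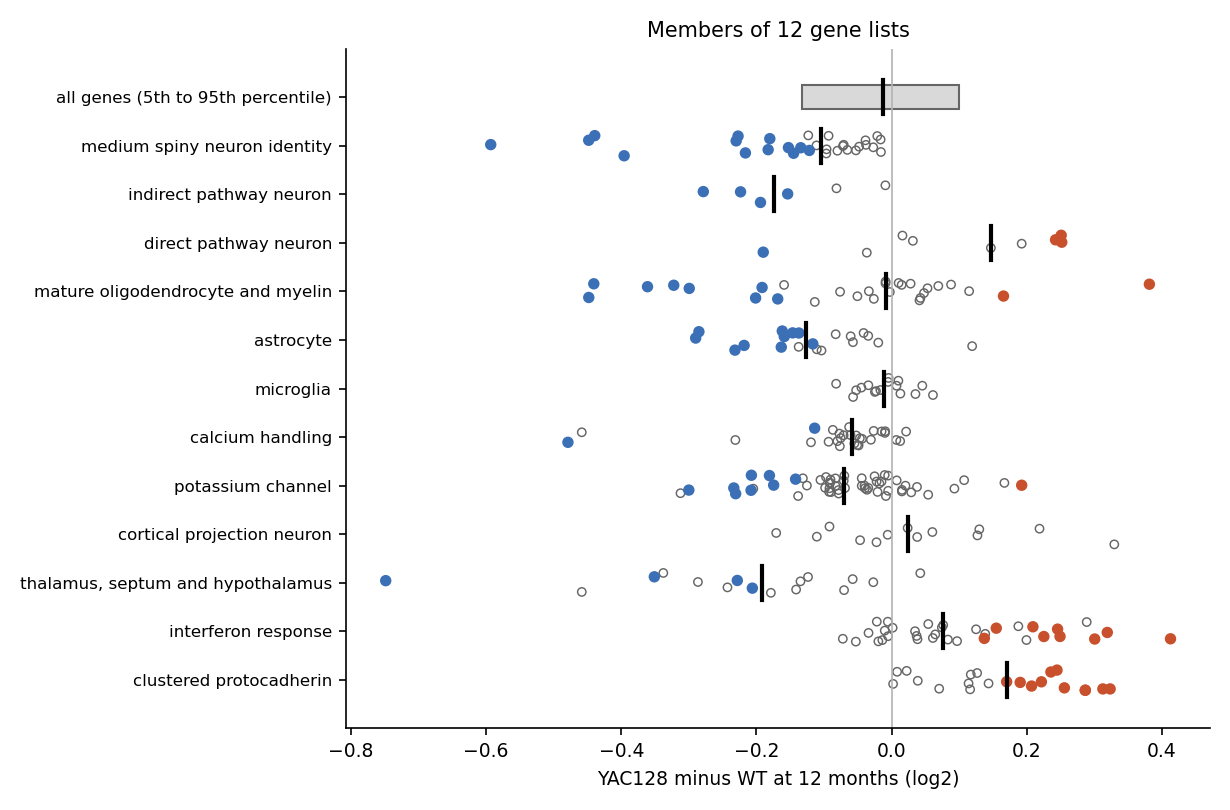
Difference of YAC128 from WT at 12 months (x axis, log2) for every measured member of 12 gene lists and for all genes (box with 5th to 95th percentile). Filled points had an unadjusted limma p under 0.05, blue where lower and red where higher in YAC128 mice, open points did not, and vertical ticks are list medians. Medium spiny neuron and astrocyte members lie mainly left of 0, and clustered protocadherins right of 0.

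Markers of the indirect and direct output pathways had medians of opposite sign. Among 6 measured indirect pathway markers, 4 were lower at the unadjusted threshold and none was higher, and the median was -0.17. Gpr6, a constitutively active receptor of these cells, read 10.95, 10.88, 11.16, 11.13 and 10.92 in WT and 10.88, 10.62, 10.70, 10.81 and 10.63 in YAC128 mice, a difference of -0.28 ± 0.074. YAC128 female 1 and WT female 2 met at 10.88, and otherwise the groups were apart. Penk, which encodes enkephalin, read 13.13, 12.98, 13.02, 13.19 and 13.03 in YAC128 mice, a difference of -0.19 ± 0.057, and its groups overlapped. Drd2, the dopamine D2 receptor, differed by -0.15 ± 0.065 and Gpr52 by -0.22 ± 0.083. Leaving out an array gave between 2 and 4 lower members, with 2 without YAC128 male 2, WT male 1 or WT male 2. The fit over all 26 arrays gave 0.

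Direct pathway markers held 3 higher and 1 lower member among 9, with a median of 0.15. Tac1, the substance P precursor, read 11.20, 11.16, 11.33, 11.31 and 11.23 in WT and 11.55, 11.53, 11.52, 11.53 and 11.36 in YAC128 mice, and all YAC128 values lay above all WT values. Its difference was 0.25 ± 0.054, or 1.19-fold higher, with an unadjusted p of 0.000671. Eya1, a transcriptional coactivator, differed by 0.25 ± 0.070 with separate groups, and Isl1, a homeobox factor of direct pathway neurons, by 0.24 ± 0.075. Pdyn, the dynorphin precursor, differed by 0.19 ± 0.10 and missed the threshold with an unadjusted p of 0.078. Chrm4, the muscarinic receptor M4, was the lower member at -0.19 ± 0.057. Drd1, the D1 receptor that defines these cells, read 10.74, 10.66, 10.85, 10.86 and 10.65 in WT and 10.66, 10.71, 10.74, 10.81 and 10.64 in YAC128 mice, a difference of -0.037 ± 0.058, and the groups overlapped almost fully. With an array left out, the higher count ranged from 3 to 5, with 5 without WT male 1 or WT male 2. The fit over all 26 arrays gave 1 higher and 0 lower members, and the mean of the within-sex differences gave 5 and 1. At 6 and 18 months the list medians were -0.044 and -0.038 for the direct pathway and -0.29 and -0.43 for the indirect one. Means over the indirect list overlapped between the genotypes at both ages. The lowest YAC128 mouse lay at 10.06 beside a group mean of 10.48 at 6 months, and at 9.72 beside 10.33 at 18 months.

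Receptors for other transmitters had members of both signs. The kappa opioid receptor gene Oprk1 read 8.66, 8.86, 8.66, 8.89 and 8.88 in WT and 8.47, 8.44, 8.10, 8.43 and 8.74 in YAC128 mice, a difference of -0.35 ± 0.10. YAC128 male 2, at 8.74, lay within the WT range and the other 4 YAC128 mice lay below it. In the list of opioid, cannabinoid and peptide genes 5 of 29 members were lower and 1, Tac1, was higher. The lower count was 3 without YAC128 female 1 or female 2, and 2 in the fit over all 26 arrays. Htr2a, the serotonin 2A receptor, read 9.39, 9.79, 9.86, 9.77 and 10.13 in WT and 10.19, 10.46, 10.21, 10.18 and 10.22 in YAC128 mice. All YAC128 values lay above all WT values, with a difference of 0.46 ± 0.12, or 1.38-fold, and an unadjusted p of 0.00206. The interval of that difference was 0.21 to 0.72, and the WT mice alone spanned 9.39 to 10.13. Htr2c, the serotonin 2C receptor, read 9.74, 10.01, 9.75, 9.87 and 9.99 in WT and 10.08, 10.10, 10.07, 10.36 and 10.08 in YAC128 mice, a difference of 0.26 ± 0.076, again with separate groups. Of 19 serotonin, muscarinic and adrenergic receptor genes these were the 2 higher ones, Chrm4 was the lower one, and the median was -0.073. Over all 26 arrays 1 was higher and 0 lower.

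Glutamate and GABA receptor genes had few calls. Of 23 glutamate receptor genes, 3 were lower at the unadjusted threshold, and 1 in the fit over all 26 arrays. Grin2c, an NMDA receptor subunit, differed by -0.18 ± 0.049, Grm5, the metabotropic receptor mGluR5, by -0.14 ± 0.044, and Grik2, a kainate receptor subunit, by -0.11 ± 0.049. Of 19 GABA genes only Gabrd, the extrasynaptic delta subunit, passed, at -0.13 ± 0.051. The median differences of the 2 lists were -0.045 and 0.016.

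Among ion channels and calcium handling, Ryr1 stood first. It encodes a ryanodine receptor, the channel that releases calcium from the endoplasmic reticulum, and read 8.78, 8.73, 8.95, 8.96 and 8.73 in WT and 8.30, 8.38, 8.44, 8.40 and 8.24 in YAC128 mice. The groups were separate, with a difference of -0.48 ± 0.065, or 1.39-fold lower, and an adjusted p of 0.0609. Slc8a3, a sodium-calcium exchanger, was the other calcium gene past the unadjusted threshold, at -0.11 ± 0.049. Of 28 calcium handling genes 25 had negative differences, with a median of -0.058. Mean levels over this list were 10.14, 10.13, 10.13, 10.18 and 10.18 in WT and 10.08, 10.07, 10.03, 10.05 and 10.09 in YAC128 mice, so that the groups were separate on the mean although only 2 members passed the threshold. That count was 6 without WT female 2, and 1 without any of YAC128 female 2, YAC128 female 3, YAC128 male 2, WT male 2 or WT male 3, or in the fit over all 26 arrays. Orai2, a subunit of store-operated calcium channels, was higher by 0.51 ± 0.16 on 1 probeset, but its other probeset differed by -0.046.

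Potassium channel genes were lower in 8 of 55 cases and higher in 1. Kcnk13, a two-pore channel, differed by -0.21 ± 0.048 and Kcnc1, a fast delayed rectifier, by -0.17 ± 0.056, both with separate groups. Kcnj10, the inward rectifier of astrocytes and oligodendrocytes, differed by -0.21 ± 0.060, and the beta subunit gene Kcnab3 by -0.30 ± 0.10. Kcng1, a modifier subunit that is no member of the list, had separate groups in the other direction. It read 9.39, 9.36, 9.57, 9.53 and 9.57 in WT and 9.67, 9.76, 9.80, 9.78 and 9.81 in YAC128 mice, a difference of 0.28 ± 0.056. Of 34 sodium and calcium channel genes 4 were lower, Scn4b among them, with Scn7a at -0.26 ± 0.093, Scn1a at -0.15 ± 0.053 and Cacna2d1 at -0.15 ± 0.057. The second probeset of Cacna2d1 differed by -0.027. The fit over all 26 arrays gave 2 lower members in each of these 2 channel lists.

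Synaptic genes had calls on both sides of the synapse. Of 43 vesicle and release genes 5 were lower, with Syt2, a fast calcium sensor, at -0.25 ± 0.052 and separate groups, and Vamp1, a vesicle SNARE, at -0.28 ± 0.11. The list median was 0.0068. Of 37 postsynaptic genes 4 were lower and 3 higher. Beside Actn2, the lower ones included Shank3, a scaffold of the postsynaptic density, at -0.14 ± 0.046, and Ppp1r9a, or neurabin, at -0.19 ± 0.076. Lrrtm4, a synapse organising membrane protein, was higher at 0.19 ± 0.063. Over all 26 arrays 1 vesicle gene was lower, and 1 postsynaptic gene was lower and 1 higher.

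Astrocyte markers also differed mainly in 1 direction. Astrocytes clear glutamate and potassium from the synaptic space and are coupled by gap junctions. Of 20 measured markers 19 had negative differences, beside 11624 of 19937 over all genes. At the unadjusted threshold 10 were lower and none was higher, and the median was -0.13. The markers include genes that the study lists from these samples, such as Glul and Slc1a2, so these counts are a description. Gja1, the gap junction protein connexin 43, read 10.06, 10.07, 10.10, 10.09 and 10.07 in WT and 9.87, 9.65, 9.73, 9.81 and 9.89 in YAC128 mice. The WT mice spanned only 10.06 to 10.10, all above the YAC128 mice, and the difference was -0.29 ± 0.053 with an unadjusted p of 0.000216. Glul, glutamine synthetase, read 12.40, 12.30, 12.29, 12.20 and 12.34 in WT and 11.98, 12.08, 12.11, 12.14 and 12.13 in YAC128 mice, a difference of -0.22 ± 0.052 with separate groups. Its second probeset gave -0.27. Slc1a2, the glutamate transporter GLT-1, differed by -0.16 ± 0.048 and Gjb6, connexin 30, by -0.16 ± 0.062, both with separate groups. Aqp4, the water channel of astrocyte endfeet, differed by -0.23 ± 0.064 with 1 YAC128 animal, male 2 at 8.98, above WT male 3 at 8.96.

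Gfap, the intermediate filament gene whose rise marks reactive astrocytes, read 9.13, 8.65, 8.64, 8.62 and 8.61 in WT and 8.78, 8.43, 8.25, 8.25 and 8.47 in YAC128 mice. Its difference was -0.29 ± 0.12 with an unadjusted p of 0.0387, and female 1 was the highest animal in each genotype. Mean levels over the astrocyte list were 10.09, 10.10, 10.09, 10.08 and 10.04 in WT and 10.05, 9.91, 9.89, 9.97 and 9.98 in YAC128 mice. YAC128 female 1 was the only YAC128 mouse within the WT range. The count of lower members ranged from 6, without YAC128 female 3, YAC128 male 2 or WT female 1, to 13, without YAC128 female 1. It was 6 with arrays centred on the median. Il33, an alarmin cytokine that glia hold in the nucleus, read 10.09, 9.99, 9.76, 9.90 and 9.83 in WT and 9.60, 9.42, 9.38, 9.40 and 9.37 in YAC128 mice. Its difference was -0.48 ± 0.071, or 1.39-fold lower, with separate groups and an adjusted p of 0.0609. In the list of reactive glia and complement, Il33 and Gfap were the only 2 of 18 members past the threshold, and 1 member passed in the fit over all 26 arrays.

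**Figure D3:**
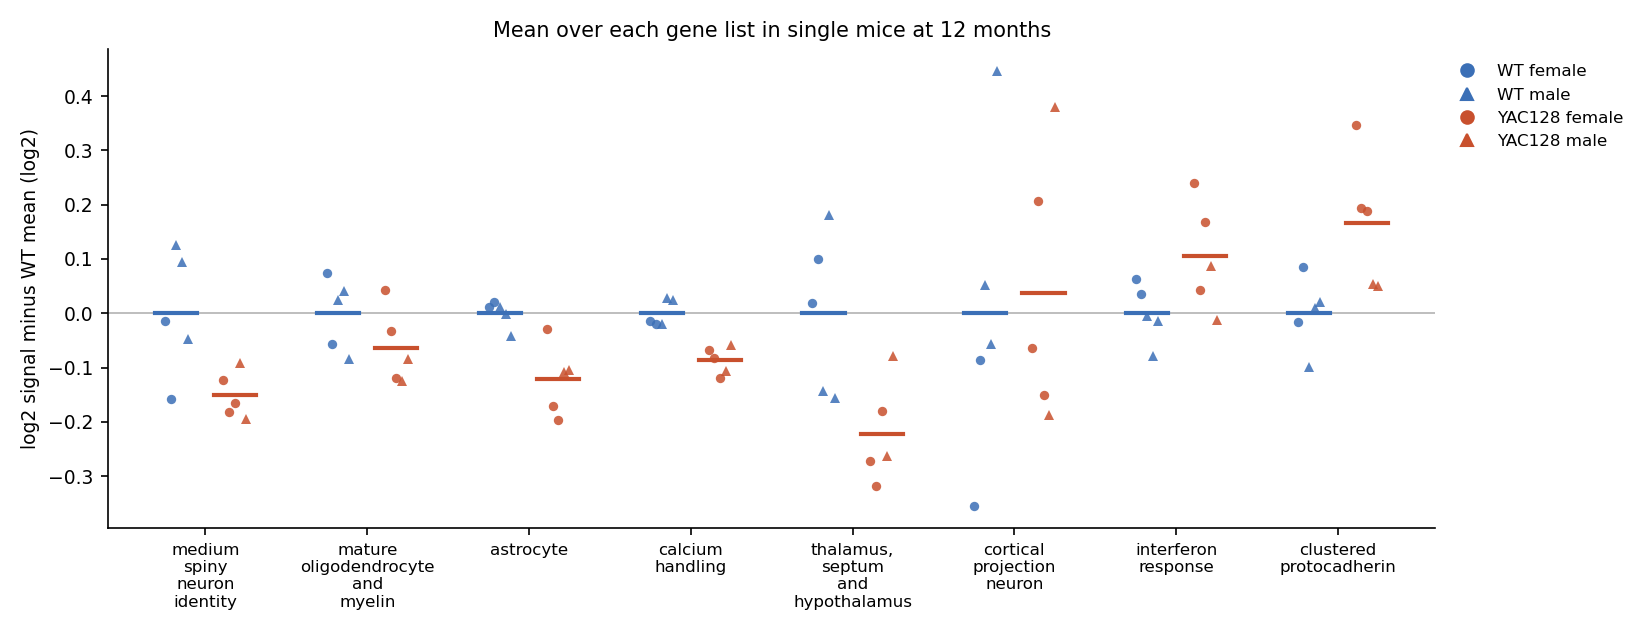
Mean log2 signal over the measured members of 8 gene lists in each of the 10 mice, as the difference from the WT mean of the list (y axis, log2 units). Circles are females, triangles are males, and bars are group means. YAC128 mice lie below WT mice for calcium handling, and WT female 2 lies within the YAC128 range for medium spiny neuron identity.

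Genes of the interferon response differed in the other direction. Many genes that type I interferons induce carry a promoter element called the interferon-stimulated response element (ISRE). Of 34 measured genes of this list 9 were higher at the unadjusted threshold and none was lower, beside 1.44% and 3.22% over all genes, and the median difference was 0.075. In 3 members the groups were separate, beside 0.406% of all genes. The list includes genes that the study lists from these samples, among them Ifit1, Irf9, Usp18 and Rnf213, so these counts are a description. Rnf213, a large ubiquitin ligase, read 8.16, 8.05, 8.07, 7.97 and 8.01 in WT and 8.25, 8.31, 8.40, 8.34 and 8.22 in YAC128 mice, a difference of 0.25 ± 0.053 with an unadjusted p of 0.000601. Its second probeset differed by 0.13. Ifit1, an antiviral protein that binds foreign RNA, read 7.09, 7.04, 7.02, 6.73 and 6.92 in WT and 7.75, 7.20, 7.48, 7.25 and 7.18 in YAC128 mice, a difference of 0.41 ± 0.11, or 1.33-fold. Irf9, a transcription factor of the interferon response, read 7.85, 7.89, 7.94, 7.88 and 7.86 in WT and 8.36, 7.96, 8.07, 8.14 and 8.01 in YAC128 mice, a difference of 0.23 ± 0.071. YAC128 female 1 had the highest value of all 10 mice in Ifit1 and in Irf9.

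Usp18, which removes the interferon-induced modifier ISG15, differed by 0.32 ± 0.11, Ifit3 by 0.30 ± 0.12, Ifi27 by 0.21 ± 0.061, and Xaf1 by 0.15 ± 0.059. Ddx58, the RNA sensor RIG-I, differed by 0.14 ± 0.057. Mean levels over the list were 7.27, 7.25, 7.20, 7.13 and 7.20 in WT and 7.45, 7.25, 7.38, 7.30 and 7.20 in YAC128 mice. The groups overlapped, and YAC128 female 1 was again the highest. Without YAC128 female 1 the count of higher members was 5 and the median 0.044, and the count ranged from 5 to 12 with any 1 array left out. Without WT male 1 it was also 5. Of 17 antigen presentation genes, which interferons also induce, none passed the threshold, with H2-Q4 at 0.25 ± 0.12.

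Promoter sequences are shown for 4 of the members that hold the element through which interferon is known to act. Ifit1 and Ifit3 passed the unadjusted threshold, while Oas1a and Bst2 did not and were picked after their values were seen. In the 200 bases before the start site, the ISRE core GAAANNGAAA was searched on both strands in RefSeq promoters of build GRCm38.p6. It was found in 716 of 27025 genes (2.65%) and in 9 of 23 list members with a promoter (39.1%). Of the 7 members with a promoter past the threshold 2 held it (28.6%), Ifit1 and Ifit3. The list was made of genes of the interferon response, which favours its share whatever the values here. Oas1a and Bst2 hold the motif too but differed by only -0.022 ± 0.087 and -0.034 ± 0.072. The 4 windows are printed 5′ to 3′ on the strand of the gene, ending 1 base before the start, with matches to the motif or its reverse complement in capitals. They lie at chr19:34640689-34640888 (+ strand), chr19:34583329-34583528 (+ strand), chr5:120907526-120907725 (- strand) and chr8:71537473-71537672 (- strand).
Ifit1: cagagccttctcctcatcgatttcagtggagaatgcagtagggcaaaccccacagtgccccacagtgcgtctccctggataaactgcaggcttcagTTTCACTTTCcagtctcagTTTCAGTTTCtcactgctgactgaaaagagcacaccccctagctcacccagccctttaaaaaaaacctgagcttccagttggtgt
Ifit3: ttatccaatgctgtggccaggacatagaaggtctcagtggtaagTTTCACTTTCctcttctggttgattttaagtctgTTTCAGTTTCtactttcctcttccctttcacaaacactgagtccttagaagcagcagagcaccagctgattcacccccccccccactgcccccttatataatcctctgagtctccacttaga
Oas1a: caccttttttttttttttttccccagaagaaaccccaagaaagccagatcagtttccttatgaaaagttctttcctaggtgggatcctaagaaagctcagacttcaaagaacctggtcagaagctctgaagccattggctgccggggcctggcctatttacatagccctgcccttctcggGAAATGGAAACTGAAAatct
Bst2: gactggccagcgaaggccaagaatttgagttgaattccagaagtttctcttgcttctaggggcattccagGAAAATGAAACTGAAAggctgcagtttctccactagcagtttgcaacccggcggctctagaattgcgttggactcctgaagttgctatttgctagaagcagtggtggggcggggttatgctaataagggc
Ifit1 and Ifit3 each hold 2 separate copies, beginning 104 and 85 bases before the start in Ifit1 and 156 and 122 bases before it in Ifit3. In Oas1a and Bst2 the 2 matches overlap in 1 run. A match is one of letters, not a measured binding site.

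Clustered protocadherins of the beta family differed upwards. These genes lie side by side and each neuron expresses a few of them, so that the encoded adhesion proteins give cells an identity. All 21 measured members had positive differences, from 0.0022 to 0.32, with a median of 0.17, and 11 passed the unadjusted threshold. Pcdhb16 read 7.82, 7.97, 7.78, 7.80 and 7.94 in WT and 8.12, 8.16, 8.09, 8.11 and 8.12 in YAC128 mice, a difference of 0.26 ± 0.050 with separate groups, and Pcdhb21 read 6.89, 6.93, 6.89, 6.80 and 7.10 in WT and 7.36, 7.25, 7.20, 7.12 and 7.25 in YAC128 mice, a difference of 0.31 ± 0.064. Pcdhb3 differed by 0.32 ± 0.086 and Pcdhb19 by 0.24 ± 0.068. Mean levels over the family were 7.68, 7.79, 7.60, 7.71 and 7.72 in WT and 8.05, 7.90, 7.89, 7.76 and 7.75 in YAC128 mice. YAC128 female 1 was the highest, and the 2 YAC128 males lay just below WT female 2. The members are similar in sequence, so their probesets may share signal and the 21 values are not 21 independent ones. Without YAC128 female 1, 9 members were higher with a median of 0.13, and the count ranged from 8 to 14 with an array left out.

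Other adhesion and matrix genes went both ways, with 6 of 60 higher and 5 lower, and 5 and 3 in the fit over all 26 arrays. Pkp2, a desmosomal plakophilin, read 7.45, 7.58, 7.33, 7.53 and 7.54 in WT and 6.996, 7.16, 7.18, 7.08 and 7.10 in YAC128 mice, a difference of -0.38 ± 0.059 with separate groups. Smoc1, a secreted calcium-binding matrix protein, read 7.66, 7.53, 7.55, 7.62 and 7.48 in WT and 7.76, 7.88, 7.88, 7.93 and 7.78 in YAC128 mice, a difference of 0.28 ± 0.053, and Lrrn3, a leucine-rich repeat membrane protein, differed by 0.28 ± 0.065. Both had separate groups. Among genes of transcription, Polr2a, the largest subunit of RNA polymerase II, read 9.16, 9.40, 9.24, 9.38 and 9.38 in WT and 9.71, 9.60, 9.47, 9.53 and 9.64 in YAC128 mice, a difference of 0.28 ± 0.065, and Cited2, a CBP/p300-binding coactivator, differed by 0.23 ± 0.055, again with separate groups. Cdk19, a Mediator kinase, was lower at -0.26 ± 0.070 and Taf4, a subunit of TFIID, at -0.10 ± 0.043, and 4 of 35 members of this list passed in all.

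Several lists had no member past the unadjusted threshold. They were 16 microglial, 16 endothelial and mural, 13 cortical neuron, 12 choroid plexus and 7 blood markers, 17 genes of neurotrophin signalling, 20 of cholesterol synthesis, 44 of oxidative phosphorylation, 27 chaperones, and 38 of the proteasome and autophagy. Their medians lay between -0.074 and 0.029. For the choroid plexus list 11 of 12 differences were negative. Of 24 immediate early genes 2 were lower, Egr2 at -0.32 ± 0.13 and Jun at -0.13 ± 0.058. Of 19 clock genes 2 were lower, Rora at -0.21 ± 0.078 and Per3 at -0.13 ± 0.050. Over all 26 arrays 0 immediate early genes and 1 clock gene were lower.

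A minority of the markers of neighbouring regions passed the threshold. Of 16 markers of thalamus, septum and hypothalamus 15 had negative differences, 4 were lower at the unadjusted threshold, and the median was -0.19. Slc17a6, the vesicular glutamate transporter of thalamic neurons, read 7.87, 8.49, 7.22, 8.71 and 7.46 in WT and 7.08, 6.73, 7.29, 7.09 and 7.81 in YAC128 mice. WT female 2 and WT male 2 stood highest, and the difference was -0.75 ± 0.29. Prkcd, a kinase abundant in thalamus, differed by -0.35 ± 0.12, and Ramp3, a receptor accessory protein, by -0.23 ± 0.076. Mean levels over the list were 7.96, 8.04, 7.80, 8.12 and 7.79 in WT and 7.67, 7.62, 7.76, 7.68 and 7.86 in YAC128 mice. In the fit over all 26 arrays 0 members were lower. Without WT male 3, 7 members were lower. Without WT male 2, 3 were lower with a median of -0.14, and the medium spiny neuron list then had 8 lower members with a median of -0.085. Cortical markers varied widely in both groups, with Tbr1 between 7.22 and 9.29 in WT and between 7.81 and 9.22 in YAC128 mice. The part of neighbouring tissue in the gene differences was not tested.

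Of the remaining genes with the smallest p, several are known for roles outside the striatal lists. Ptprv, a receptor-type phosphatase, read 8.17, 8.19, 8.29, 8.29 and 8.19 in WT and 7.88, 7.92, 7.95, 7.84 and 7.79 in YAC128 mice, a difference of -0.35 ± 0.048. Galnt13, an enzyme that starts O-glycosylation in neurons, read 9.72, 9.76, 9.91, 9.90 and 9.77 in WT and 9.51, 9.36, 9.39, 9.48 and 9.38 in YAC128 mice, a difference of -0.39 ± 0.055. Plk5, a kinase-dead polo-like kinase of neurons and glia, read 8.69, 8.65, 8.99, 8.80 and 8.80 in WT and 8.34, 8.39, 8.40, 8.31 and 8.37 in YAC128 mice, a difference of -0.43 ± 0.063. All 3 had separate groups and an adjusted p of 0.0609 by limma. Zcwpw1, a reader of histone methylation, differed by -0.32 ± 0.045, Bmp2, a bone morphogenetic protein, by -0.37 ± 0.056, and Sec14l3, a lipid-binding protein, by -0.45 ± 0.067.

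On the higher side, Tmc3, a transmembrane channel-like gene, read 7.08, 7.12, 6.98, 6.98 and 6.94 in WT and 7.68, 7.48, 7.44, 7.33 and 7.32 in YAC128 mice, with a difference of 0.43 ± 0.072. Adamts6, a secreted metalloprotease, differed by 0.32 ± 0.057, Acy3, an aminoacylase, by 0.32 ± 0.057, and Abracl, a small actin-regulating protein, by 0.34 ± 0.071. Groups of all 4 were separate. The smallest adjusted p of a higher gene was the 0.0609 of Zfp488.

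The sexes were unequal between the genotypes. Sex itself, with genotype in the model, gave 2097 genes (10.5%) at an unadjusted p under 0.05 and 56 probesets at an adjusted p under 0.05. For a genotype difference that differed between females and males, 591 genes (2.96%) passed the unadjusted threshold and no probeset passed after adjustment. That share lay below the 5% that the threshold alone would give. With an additive sex term, 833 of the 929 genes (89.7%) kept an unadjusted p under 0.05 with the same sign, and 1302 genes passed in all. Car2, Aspa and Gm19410 then kept an adjusted p under 0.05, and Phex had an adjusted p of 0.0635.

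Of the 104 genes given here with an unadjusted p under 0.05, each had the same sign in females and in males, which their choice by the pooled difference favours. Actn2 differed by -0.46 in females and -0.69 in males, and Cnr1 by -0.34 and -0.51. Htr2a differed by 0.70 in females and 0.28 in males, with an unadjusted p of 0.0719 for the difference of the 2. Tac1 differed by 0.35 and 0.16. Il33 differed by -0.57 and -0.45. With 2 or 3 mice in each cell, a p that missed the threshold does not show that the sexes were alike.

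**Figure D4:**
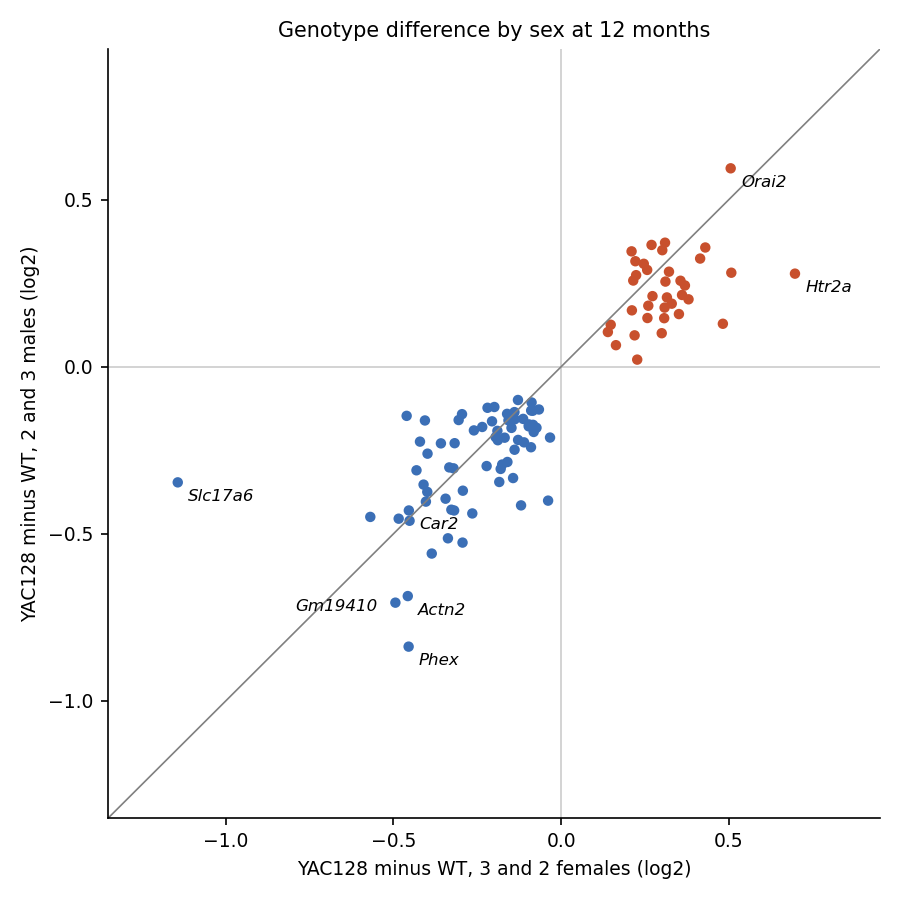
Difference of YAC128 from WT in males (y axis, log2) against that in females (x axis, log2) at 12 months for the genes given in the text with an unadjusted p under 0.05. The line marks equal differences. All points lie in the lower left or upper right, and Slc17a6 lies furthest from the line.

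The same comparison at 6 and 18 months shares no array with that at 12 months. It had 4 WT and 4 YAC128 arrays at 6 months and 3 and 5 at 18 months, and no probeset reached an adjusted p under 0.05 at either age. At the unadjusted threshold 264 genes (1.32%) passed at 6 months, 0.557% higher and 0.767% lower, and 710 (3.56%) at 18 months, 1.61% higher and 1.96% lower. The shares of 1.32% and 3.56% lay below the 5% that this threshold alone would give. Of the 929 genes at 12 months, 71 (7.64%) also passed at 6 months, which is 26.9% of the genes of that age, and 68 of them had the same sign. At 18 months 161 (17.3%) also passed, 22.7% of the genes of that age, and 160 had the same sign. Of all 929 genes, 69.8% had the same sign at 6 months and 70.8% at 18 months, beside 53.6% and 52.6% over all genes. In total 38 genes passed at each of the 3 ages, 29 of them lower and 8 higher at all ages, and Dusp4, a phosphatase of MAP kinases, was the one with mixed signs.

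Actn2 differed by -0.74 ± 0.21 at 6 months and -1.005 ± 0.22 at 18 months, beside -0.59 at 12 months. Ryr1 differed by -0.54 ± 0.18 and -0.85 ± 0.16 at those ages, and Phex by -0.73 ± 0.17 and -0.71 ± 0.13. Cnr1 differed by -0.43 ± 0.19 and -0.59 ± 0.16, and Scn4b by -0.59 ± 0.23 and -0.64 ± 0.23. Of the higher genes, Tmc3 differed by 0.50 ± 0.088 and 0.71 ± 0.087 and Htr2a by 0.42 ± 0.17 and 0.36 ± 0.16. Medium spiny neuron markers had medians of -0.22 at 6 months and -0.31 at 18 months, both further from 0 than the -0.10 of 12 months, beside 0.0081 and 0.0035 over all genes. At those ages 4 and 6 of the 30 passed the unadjusted threshold as lower. The list means of the genotypes overlapped at both ages. The lowest YAC128 mouse lay at 10.33 beside a group mean of 10.72 at 6 months, and at 9.98 beside 10.51 at 18 months. For a change in the genotype difference from 12 months to either age, 0 of the 30 passed the unadjusted threshold. In each of these 7 genes the SE was larger at 6 and 18 months than at 12 months, for example 0.21 and 0.22 beside 0.085 for Actn2.

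Car2 and Aspa, of oligodendrocytes, were further from 0 at 12 months than at 6, while the median of their list was -0.0090 at 12 months and -0.034 at 6 months. Car2 differed by -0.19 ± 0.081 at 6 months and -0.30 ± 0.10 at 18 months, and Aspa by -0.11 ± 0.087 and -0.23 ± 0.14. The change in the genotype difference from 6 to 12 months was -0.26 ± 0.10 for Car2, with an unadjusted p of 0.0159 by limma, and -0.33 ± 0.13 for Aspa, with 0.0185. Gja1, of astrocytes, differed by -0.059 ± 0.092 at 6 months and -0.21 ± 0.067 at 18 months, with an unadjusted p of 0.02 for the change from 6 to 12 months. Zfp488 differed by 0.0011 ± 0.12 at 6 months and 0.42 ± 0.070 at 18 months. Its change from 6 to 12 months was 0.35 ± 0.11, with an unadjusted p of 0.00361. Car2, Aspa, Gja1 and Zfp488 were picked by a small p at 12 months, which favours larger differences at that age than at others. Interferon genes had 9 of 34 members higher at 18 months, beside 1.61% of all genes, and none at 6 months, with medians of 0.17 and 0.083.

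No difference between ages passed an adjusted p of 0.05. At the unadjusted threshold 340 genes (1.71%) passed for a change in genotype difference between 12 and 6 months, and 493 (2.47%) between 12 and 18 months. Both shares lay below the 5% that this threshold alone would give. Dusp4 was -0.13 ± 0.050 at 12 months, 0.22 ± 0.085 at 6 months and 0.20 ± 0.088 at 18 months. Its changes were -0.35 ± 0.10 from 6 months and -0.33 ± 0.10 from 18 months, with unadjusted p of 0.00121 and 0.00257. The smallest p for a change from 6 months belonged to the probeset of Mir484, a microRNA gene. It read 5.12, 5.12, 5.39, 5.36 and 5.27 in WT and 5.50, 5.44, 5.50, 5.60 and 5.51 in YAC128 mice at 12 months, with a difference of 0.26 ± 0.064, and differed by -0.19 ± 0.087 at 6 months, a change of 0.45 ± 0.10 with an unadjusted p of 0.000109 and an adjusted p of 1.00. Its mean signal of 5.39 over the 26 arrays was low, and the array reads RNA from this locus at chr16:14159626-14159692 (GRCm38.p6, + strand) without separating precursor from mature form. The mature sequence from RefSeq is shown as the identity of this gene, with the seed, bases 2 to 8, in capitals.
mmu-miR-484: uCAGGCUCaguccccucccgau

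**Figure D5:**
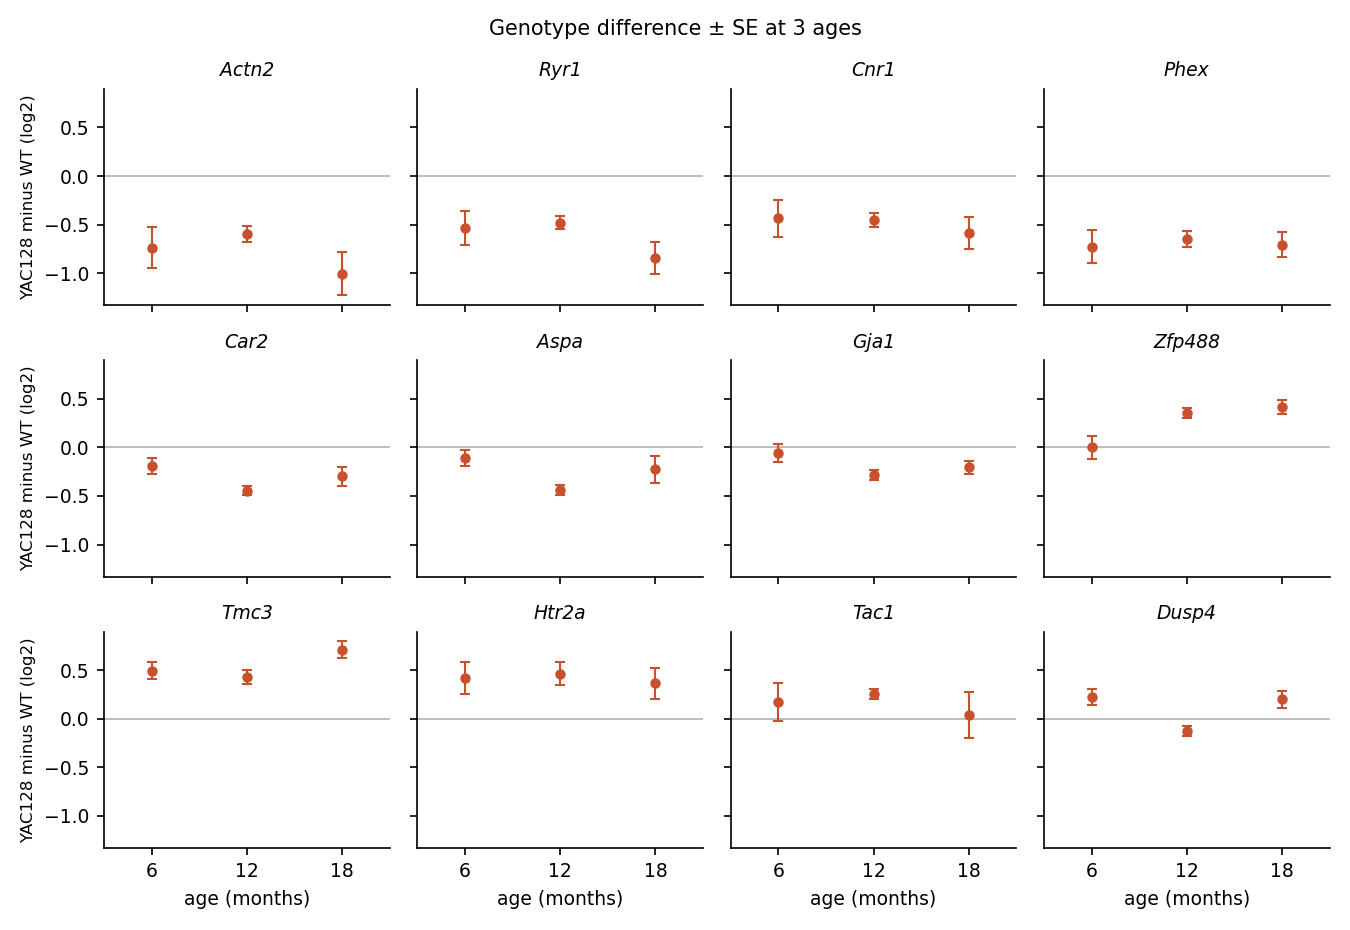
Difference of YAC128 from WT (y axis, log2) at 6, 12 and 18 months (x axis) for 12 genes, with bars of 1 standard error from limma. Numbers of WT and YAC128 arrays are 4 and 4, 5 and 5, and 3 and 5. Actn2, Cnr1 and Phex lie below 0 at each age, Car2 and Aspa lie lowest at 12 months, and Zfp488 is at 0 at 6 months and above it at 12 and 18 months.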

How the data were processed

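Striatal RNA of 26 mice was measured on Affymetrix Mouse Gene 1.0 ST arrays, of which the 10 at 12 months were compared. The authors deposited log2 values, background-corrected, normalized and summarised to 34760 probesets by robust multi-array average (RMA) in R, whose versions are not given in the sources used here. RMA equalises the arrays, which can hide a shift of many genes in 1 direction. Array medians at 12 months lay between 7.43 and 7.52. The number of mice limits the precision, and reads or counts do not apply. The labels name the samples biological replicates. The study states more mice than the arrays used here, and the remainder were not analysed here.

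Probesets were named from a table pairing them with genes. Of these, 21640 had 1 symbol, 1321 had several and 11799 had none, and a gene kept its probeset of the highest mean over the 26 arrays. All values were used without further normalization. Genotypes were compared with limma 3.58.1 (lmFit and eBayes) in R 4.3.3, at 12 months alone, without covariates, two-sided, with Benjamini-Hochberg adjustment over all probesets. Each other age was fitted alone, differences between ages in 1 fit of 6 group means, and sex as a term at 12 months. The procedure was tested on simulated data. Alternatives were a sex term, within-sex means, all 26 arrays, a replicate block, quantile and median scaling, a filter on dim probesets, other variance models, array weights, adjustment over genes, mean probesets, and leaving out each array. The members and the 38 gene lists, of which 930 of 1022 entries were measured, were chosen with earlier results of these data known. Genes named were Htt and Bdnf, genes that the study lists between genotypes, the 12 of smallest p in each direction, the 4 to 8 of smallest p in each list, those most different between ages, and sex-linked genes. Anln, Rgs9, Ppp1r1b, Mbp, Mog, Mag, Oas1a and Bst2 were added after their values were seen. Promoters and miRNAs came from RefSeq tables of GRCm38.p6.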

Additional observations from a re-analysis of the deposited data

Results flagged for a closer look

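Within each group of 5 mice, the highest or lowest value was set apart from the rest of its group in 22 of 310 groups tested (7.1%), by a gap of over 0.71 of the group's range. Chance flags about 1 in 20 groups. Causes were not tested. YAC128 female 1, which also had the lowest array weight (0.597), was the highest YAC128 mouse for Il33 at 9.60, Qdpr at 10.83, Enpp6 at 8.46, Eya1 at 8.86 and F8a at 7.88, and the lowest for Egr2 at 7.08. In the same group, Tac1 was lowest in male 2 at 11.36, Ramp3 was lowest in male 1 at 7.25, Htr2c was highest in male 1 at 10.36, Htr2a was highest in female 2 at 10.46, and Grin2c was highest in female 3 at 8.32. WT female 1 was the highest WT mouse for Gfap at 9.13, Mag at 10.56 and Ddx58 at 7.56. It was the lowest for Lrrn3 at 8.65 and Cited2 at 9.10, and for the means of the sodium and calcium channel list at 9.30 and of the huntingtin partner list at 9.14. WT female 2 was the lowest for Cdk19 at 9.94 and Rgs4 at 10.84, and the highest for the mean of the oligodendrocyte precursor list at 8.68. WT male 1 was the lowest for Aspa at 8.94, which still lay above the highest YAC128 value of 8.73.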

How the results depend on the processing

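Over the 20 alternatives, no gene given above with an unadjusted p under 0.05 changed direction, which their choice on these same arrays favours. Of 104 such genes 56 kept their side of that threshold under each alternative. No list median moved by more than the standard deviation between mice of the list mean, a coarse measure. For the myelin list this deviation was 0.067 in WT and 0.070 in YAC128 mice, beside a median of -0.0090, so a change of sign could go unseen. The fit over all 26 arrays gave 538 genes in place of 929, with 183 higher and 355 lower. Quantile normalization gave 605 higher genes, and 179 higher genes without overlap in place of 81. Median centring gave 420 lower genes, and 120 lower genes without overlap in place of 200. The filter on dim probesets, which tests fewer genes, gave 427 lower genes. With it, 129 and 223 genes passed for a change between 12 and 6 and between 12 and 18 months, in place of 340 and 493. The number of probesets at an adjusted p under 0.05, 5 as reported, was 3 from the mean of the within-sex differences, 2 over all 26 arrays, 0 with median centring, 19 with the filter, 20 with a trended and robust variance, 22 with array weights, 14 with adjustment over 1 probeset per gene and 32 with all probesets of a gene averaged. The cause of these moves was not tested.

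Same-numbered mice had correlations of their deviations between -0.17 and 0.13 over 4 pairs. Differently numbered mice were not set beside them, so whether the numbers pair the mice was not settled. With the replicate block, 1075 genes had an unadjusted p under 0.05 and 0 probesets an adjusted p under 0.05.

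With each array left out in turn, the genes at an unadjusted p under 0.05 numbered 744 to 1134, the higher ones 227 to 337 and the lower ones 474 to 797. Probesets at an adjusted p under 0.05 numbered 0 to 9. There were 9 without YAC128 female 1, 4 without WT female 1 or WT female 2, and 0 without any of the other 7 mice. Genes without overlap numbered 373 to 558, the higher ones 113 to 177 and the lower ones 240 to 437, since fewer mice overlap less. Of genes past no threshold, Bst2 and Oas1a changed sign. Their differences ranged from -0.072 to 0.013 and from -0.082 to 0.013, with positive values of 0.013 for Bst2 without WT female 1, and for Oas1a of 0.011 without YAC128 female 1, 0.0053 without YAC128 female 2, and 0.013 without WT female 2 or WT male 1. Background limits what dim probesets can resolve, such as that of Mir484, at percentile 7.50 of all mean signals.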

Other observations

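Interneurons of the striatum, which are cholinergic or GABAergic and few in number, had 1 of 13 markers past the unadjusted threshold of 0.05 by limma. It was Slc5a7, the choline transporter of cholinergic interneurons, with a difference of -0.19 ± 0.062. Pvalb, the parvalbumin gene of fast-spiking interneurons, read 8.59, 8.21, 8.52, 8.67 and 8.44 in WT and 8.51, 8.23, 8.32, 7.89 and 8.33 in YAC128 mice, a difference of -0.23 ± 0.12 that missed the threshold. The list median was -0.076, beside -0.013 for all genes. Among 20 genes of huntingtin partners and its pathway, 2 were higher and 2 were lower, with a median of -0.0078. F8a, whose product HAP40 binds huntingtin, differed by 0.11 ± 0.049, and Casp6, a protease that cleaves huntingtin, by 0.12 ± 0.053. Slc1a2 and Rasd2 were the lower members. The fit over all 26 arrays gave 1 higher and 1 lower member. The higher count was 1 without YAC128 female 2, YAC128 male 2 or WT male 2, and 0 without YAC128 female 1, YAC128 female 3, WT female 1, WT female 2 or WT male 3. Among 29 cytokine and chemokine genes, Il17rb, a receptor subunit for interleukin 25, was higher by 0.23 ± 0.063, and Il33 was lower. Il17rb was also higher at the other ages, by 0.33 at 6 months and 0.25 at 18 months. Fat1, an atypical cadherin, was higher by 0.27 ± 0.065 at 12 months.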
